A study of Homo sapiens with 27 samples.

Results

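The mitochondrial ribosomal protein genes were followed in U937, a human myeloid leukemia cell line, after treatment with matrine. Members were the protein-coding genes whose GENCODE symbol is MRPL or MRPS followed by a number, with or without a letter A to C, and whose mean level over 9 libraries was above 1 FPKM (fragments per kilobase of gene, scaled to the depth of the library). Of 57905 gene identifiers, 76 carried such a symbol and 75 passed the level, 47 MRPL and 28 MRPS genes. MRPL30 did not pass at a mean of 0.114 FPKM, and the nearest members inside were MRPL53 at 1.901 FPKM and MRPL46 at 4.42 FPKM. MRPS21 and MRPL45 are not analysed here. Of the genes of the file, 11899 had a mean above 1 FPKM.

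RNA-seq had 3 libraries of control U937 cells, 3 taken after 30 min with matrine and 3 taken after 24 h with matrine, in both cases at 0.8 mg/ml. Matrine is a plant alkaloid, and the study asked which genes respond to it in myeloid leukemia cells and how c-Myc is involved. Both treated groups were compared with the same control libraries, whose time in culture is not given in the sources used here, so 24 h of treatment and 24 h of culture cannot be told apart. The other cell lines of the series, HL-60 and K562, are not analysed here.

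The mitochondrial ribosome (mitoribosome) makes the few proteins encoded by mitochondrial DNA, all of them core subunits of the respiratory chain and ATP synthase. Its rRNAs are transcribed inside the organelle, whereas all of its proteins are encoded in the nucleus, translated in the cytosol and imported. Most proteins of the large subunit carry MRPL symbols and most of those of the small subunit MRPS symbols, but MRPS18A and MRPS30 belong to the large subunit. Some descend from bacterial ribosomal proteins and others were acquired only in mitochondria. Myeloid leukemia cells are known to be sensitive to drugs that block mitochondrial translation.

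Library totals lay between 17314931 and 21930018 counts, and the member with the fewest counts in any library still had 31. All pairs of libraries within a group differed by more than counting noise, by 2.22 to 14.1 on a chi-square per gene, and each library was kept as 1 replicate. Nothing in the labels says that the libraries of a group came from separate cultures, so the p-values measure the spread between these libraries. Control replicate 2 and 30 min replicate 3 stood furthest from their groups on that measure. Of the myeloid markers, LYZ was at 292 ± 6.58 FPKM (SD, n = 3) and SPI1 at 67.6 ± 4.62 FPKM in the control, while MPO was at 0.313 ± 0.117 FPKM. The erythroid markers HBG1 and HBE1 were at 0 FPKM in all 9 libraries, EPOR was at 3.07 ± 0.104 FPKM and KLF1 at 3.12 ± 0.733 FPKM. MYC, the gene of c-Myc, was at 204, 213 and 204 FPKM in the control, 49.1, 55.1 and 58.03 FPKM at 30 min and 42.2, 46.05 and 43.1 FPKM at 24 h. The MYC groups of 30 min and 24 h both lay below every control library (edgeR log2 fold change -1.93 ± 0.061 (SE) and -2.29 ± 0.064 (SE), adjusted p = 2.67e-14 and 2.66e-17).

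Promoter sequences are shown because 64 of the 75 members passed the test below control at 24 h and because CACGTG is the E-box that c-Myc and Max bind. RefSeq (GRCh38.p14) gave a window of 250 bases before to 50 after the start for 66 of the 75 members. CACGTG stood in 5 of the 66 windows (7.6%), against 7.4% of 27305 windows of all genes and 10.8% of 8584 windows of genes tested at 24 h. The 5 matches, in capitals with the bases beside them, 5′ to 3′ on the strand of the gene, were:
MRPL36, chr5:1799878-1799903, minus strand: gtgggcacgcCACGTGaccccccccc
MRPS18C, chr4:83455869-83455894, plus strand: tcataagcctCACGTGacctgccgcg
MRPL37, chr1:54199987-54200012, plus strand: cgcttcacctCACGTGaggattttcc
MRPL22, chr5:154940887-154940912, plus strand: ttcggaagccCACGTGctttcggcct
MRPL49, chr11:65121933-65121953, plus strand: cggctCACGTGgggaaggcca
Of these 5 genes, 4 passed the test below control at 24 h (adjusted p below 0.05) and MRPL49 did not. The RefSeq starts of MRPL37, MRPL36 and MRPS18C lie inside their GENCODE 44 genes, which begin further upstream. The median log2 fold change at 24 h was -0.46 with the E-box and -0.56 in the 61 members without it.

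Other motifs were held by a larger share of the member windows than of all windows. The ETS motif CCGGAAG stood in 27 of 66 (40.9%), against 10.7% of all windows and 21.7% of windows of tested genes. ATGGCGG, the core of the YY1 motif, stood in 24 of 66 (36.4%), against 5.7% and 11.7%. Most of these YY1 core matches lay after the start, on the strand of the gene, for example from base 20 in MRPL1 and base 25 in MRPS9. Whether they overlap the start of the coding sequence was not tested. TGCGCA, an NRF1 half-site, stood in 13 of 66 (19.7%), against 8.4% and 14.6%. Both strands were searched for each motif, none of the 4 strings contains another, and a match is a string of letters, not a site shown to be bound. The members' log2 fold changes at 24 h had a median of -0.52 with the ETS motif and -0.55 without it, and of -0.55 with the YY1 core and -0.55 without it. Among the 12 members with the largest falls, 10 had a window, 3 of these held the ETS motif and 3 held the YY1 core. The first match in each of these, in capitals, was:
MRPL3, ETS, chr3:131502987-131503013, minus strand: gtaaaacgcaCCGGAAGtgggtccggc
MRPS26, ETS on the opposite strand, chr20:3046005-3046031, plus strand: ccccgcgccgCTTCCGGggcacggtgg
MRPS12, ETS, chr19:38930929-38930955, plus strand: cggatagcgcCCGGAAGaggctagaag
MRPL1, YY1 core, chr4:77862839-77862865, plus strand: agtgcccaacATGGCGGcggccgtaag
MRPL19, YY1 core on the opposite strand, chr2:75646720-75646746, plus strand: cccatagcagCCGCCATatggtggcag
MRPS9, YY1 core, chr2:105038083-105038109, plus strand: cacagctaacATGGCGGcgccctgtgt

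For 3 of the members with the most negative change, the 250 bases upstream of the RefSeq start are given whole. MRPS2, MRPL12, MRPL3 and MRPL4 were passed over, because their upstream stretch overlaps an annotated exon in GENCODE 44, and no window was used for MRPL21. Capitals again mark the motif matches:
MRPL1, chr4:77862580-77862829, plus strand: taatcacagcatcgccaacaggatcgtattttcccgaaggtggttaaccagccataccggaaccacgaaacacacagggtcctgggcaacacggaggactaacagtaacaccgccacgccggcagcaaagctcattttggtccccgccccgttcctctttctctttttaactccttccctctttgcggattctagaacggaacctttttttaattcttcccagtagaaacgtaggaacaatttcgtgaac
MRPL19, chr2:75646533-75646782, plus strand: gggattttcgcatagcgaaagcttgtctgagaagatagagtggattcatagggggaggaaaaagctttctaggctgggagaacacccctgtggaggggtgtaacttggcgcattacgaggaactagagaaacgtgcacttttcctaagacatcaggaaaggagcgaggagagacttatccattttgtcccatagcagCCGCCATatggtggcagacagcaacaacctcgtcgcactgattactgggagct
MRPS26, chr20:3045802-3046051, plus strand: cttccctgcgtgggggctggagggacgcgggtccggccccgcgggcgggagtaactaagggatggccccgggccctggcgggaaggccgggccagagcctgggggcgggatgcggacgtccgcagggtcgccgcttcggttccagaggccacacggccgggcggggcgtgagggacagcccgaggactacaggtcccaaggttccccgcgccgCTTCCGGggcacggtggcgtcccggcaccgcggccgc
The upstream stretch of MRPL1 holds none of the 4 motifs, that of MRPL19 the YY1 core and that of MRPS26 the ETS motif. G and C made up 49.2% of the stretch of MRPL1, 50% of that of MRPL19 and 77.2% of that of MRPS26.

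After 24 h, most mitochondrial ribosomal protein genes were lower than in the control, and no member was higher by the test. A gene passed the test at an adjusted p below 0.05 in edgeR's quasi-likelihood test over 12035 genes, and was called down- or up-regulated when it also changed by at least 1.5-fold. Of the 75 members, 64 fell and 0 rose, while 31.8% of all tested genes fell and 31.5% rose. With the threshold on fold, 31 members were down-regulated and 0 up-regulated, against 11.2% and 15.1% of all tested genes. The median log2 fold change of the members was -0.55, and that of all tested genes was 0.01. In 65 members all 3 libraries of 24 h lay below all 3 control libraries, an order found in 31% of all tested genes. The opposite order, all 24 h libraries above all control libraries, was found in 3 members (MRPS14, MRPS36 and MRPL53) and in 38.7% of all tested genes. In bulk RNA, fewer cells of a type and less RNA per cell cannot be told apart, and a change common to all RNA is removed by the scaling.

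The myeloid markers went both ways at 24 h. Of 8 listed, ITGAM (1.25 ± 0.11 (SE)), CSF3R (1.12 ± 0.066 (SE)) and PTPRC (0.51 ± 0.063 (SE)) rose on the log2 scale, and so did MPO, to 1.84 ± 0.154 FPKM (SD, n = 3; adjusted p = 1.21e-08). LYZ (-0.31 ± 0.052 (SE)), SPI1 (-0.32 ± 0.070 (SE)) and CEBPA (-0.37 ± 0.076 (SE)) fell, and CD33 did not pass (adjusted p = 0.325). Their summed level was 442 to 446 FPKM in the control, 428 to 451 FPKM at 30 min and 395 to 399.8 FPKM at 24 h. That of the erythroid markers was 5.67 to 7.09, 5.04 to 6.41 and 6.68 to 7.96 FPKM, of which EPOR rose at 24 h (0.39 ± 0.12 (SE)). The part of these changes in the members' fall was not tested.

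The falls were moderate. Of the 64 members that fell, 33 did so by less than 1.5-fold and 5 by at least 2-fold. The summed level of the 75 members was 2252 ± 115 FPKM in the control (SD, n = 3), 2291 ± 57.2 FPKM at 30 min and 1567 ± 26.6 FPKM at 24 h, so that the sum at 24 h was 69.6% of that of the control. As a share of all counts, the members took 0.485% to 0.526% of the control libraries, 0.498% to 0.522% of the 30 min libraries and 0.349% to 0.359% of the 24 h libraries. The shares of 24 h lay below those of both other groups, which overlapped.

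**Figure D1:**
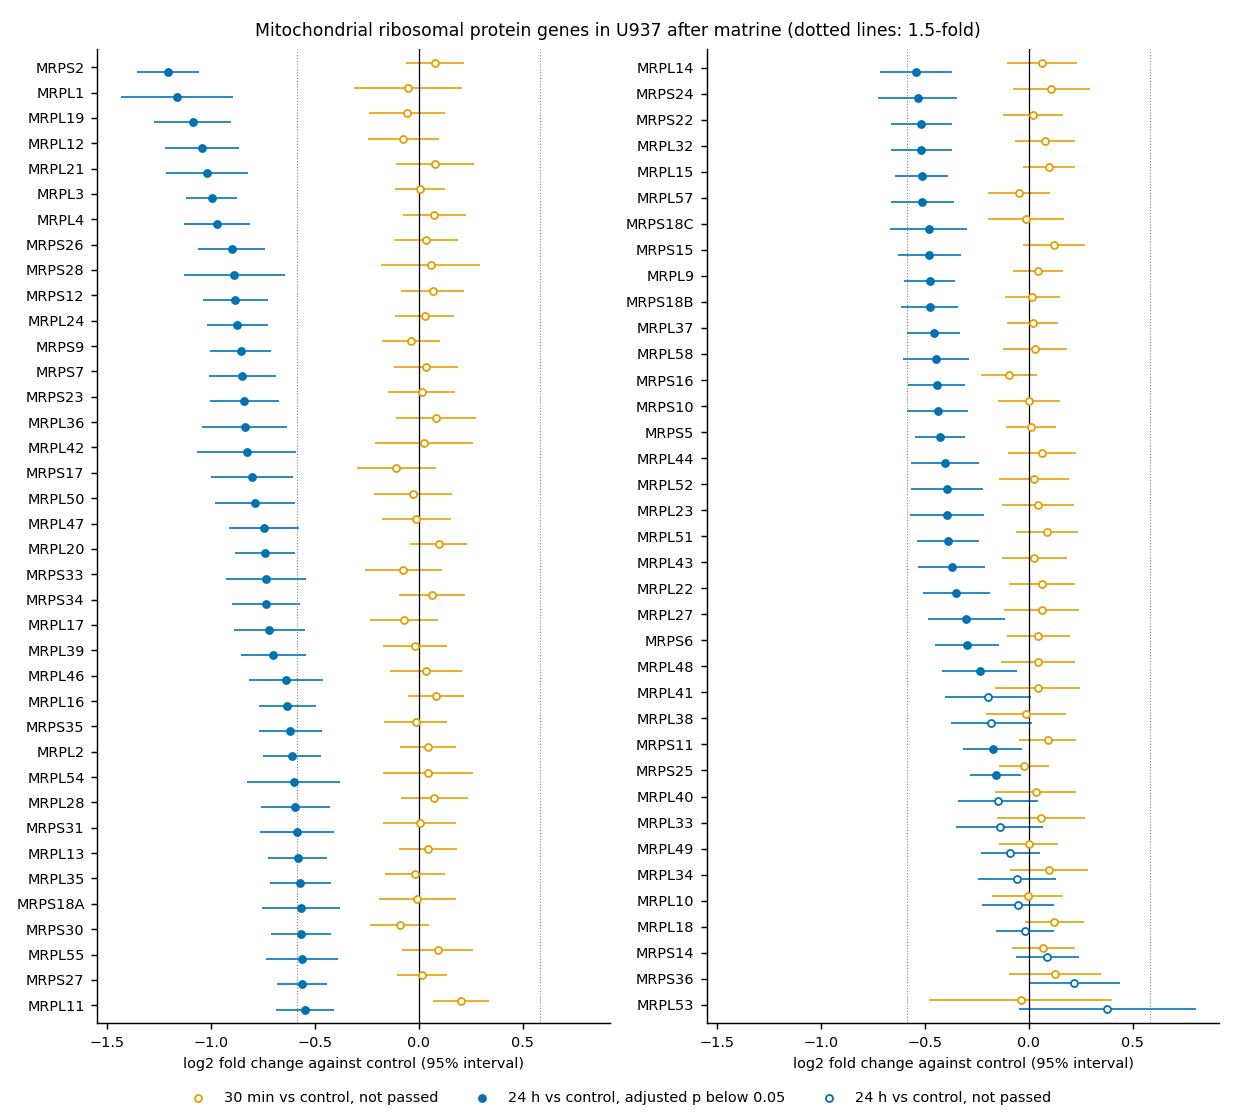
Log2 fold change against the control (x axis) with its 95% interval for each of the 75 members (y axis), ordered by the change at 24 h, with 30 min in orange and 24 h in blue. Filled points have an adjusted p below 0.05. All 64 filled points are 24 h values below 0, and the points of 30 min lie between -0.11 and 0.20.

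Ranked by log2 fold change among the members that fell, MRPS2 came first. MRPS2 (ENSG00000122140, chromosome 9, 135499984 to 135504673 in GRCh38), the counterpart of bacterial S2 in the small subunit, was at 41.8, 46.8 and 41.7 FPKM in the control libraries, 47.04, 42.2 and 46.9 FPKM at 30 min and 19.3, 19.2 and 19.8 FPKM at 24 h. The 24 h libraries lay far below the other groups, which overlapped each other (edgeR log2 fold change at 24 h -1.21 ± 0.071 (SE), 43.3% of the control, adjusted p = 7.53e-12). MRPL1 (ENSG00000169288, chromosome 4, 77862830 to 77952785), a protein of the mobile L1 stalk near which spent tRNA leaves, was at 17.6, 18.3 and 16.5 FPKM, then 18.6, 19.4 and 11.98 FPKM and 7.87, 8.34 and 7.89 FPKM. The groups of control and 24 h did not overlap, and the 30 min libraries included 1 low value, that of replicate 3 (log2 fold change at 24 h -1.17 ± 0.13 (SE), adjusted p = 1.08e-07). MRPL19 (ENSG00000115364, chromosome 2, 75646783 to 75690851), which lies at the interface of the subunits, was at 12.1, 10.5 and 10.3 FPKM, 10.5, 11.7 and 9.24 FPKM and 5.11, 5.39 and 5.52 FPKM, again with every 24 h library below all others (log2 fold change -1.09 ± 0.089 (SE), adjusted p = 1.11e-09). MRPL12 and MRPL21 completed the 5 members that were at least 2-fold lower. MRPL21 was at 14.04, 17.9 and 14.5 FPKM, 16.1, 15.8 and 16.8 FPKM and 7.68, 7.6 and 8.38 FPKM (log2 fold change -1.02 ± 0.095 (SE), adjusted p = 7.26e-09).

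MRPL3 (ENSG00000114686, chromosome 3, 131462212 to 131502983), whose bacterial counterpart reaches towards the peptidyl transferase centre, was among the more abundant members. It was at 75.01, 73.5 and 71.5 FPKM in the control, 75.4, 75.8 and 67.6 FPKM at 30 min and 38.7, 37.6 and 37.6 FPKM at 24 h. Its 24 h libraries lay below all others, at 50.1% of the control (log2 fold change -0.997 ± 0.059 (SE), adjusted p = 7.45e-12). MRPL4, a protein of the peptide exit tunnel, was at 44.2, 48.03 and 43.9 FPKM, 48.7, 44.03 and 49.4 FPKM and 22.5, 22.3 and 26.9 FPKM, with the 24 h libraries lowest (log2 fold change -0.97 ± 0.076 (SE)). MRPS12, the counterpart of the bacterial S12 that takes part in decoding, was at 40.2, 46.3 and 39.9 FPKM, 43.3, 43.1 and 44.9 FPKM and 22.1, 23.3 and 25.4 FPKM (log2 fold change -0.88 ± 0.075 (SE)). MRPL24, at the rim of the exit tunnel, was at 56.8, 65.7 and 56.8 FPKM, 62.1, 59.6 and 59.5 FPKM and 35.2, 32.9 and 33.1 FPKM (log2 fold change -0.87 ± 0.071 (SE)). In each of these 3 genes the 24 h libraries lay below all the others, which overlapped.

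MRPS26, a protein found only in mitochondrial ribosomes, was at 100, 120 and 98.7 FPKM, 112, 101 and 111 FPKM and 57.9, 57.99 and 60.5 FPKM, and fell by 0.90 on the log2 scale. MRPS9, in the head of the small subunit, was at 35.5, 38.5 and 36.6 FPKM, 37.1, 35.9 and 33.7 FPKM and 22.1, 20.6 and 20.3 FPKM, and fell by 0.86. MRPS28, at 15.3, 16.2 and 15.4 FPKM, 15.8, 19.8 and 12.7 FPKM and 8.86, 8.58 and 8.71 FPKM, fell by 0.89 and varied most at 30 min, relative to its mean, of the 3. The adjusted p (edgeR) was 2.19e-09 for MRPS26, 1.06e-09 for MRPS9 and 1.16e-06 for MRPS28. Among the 12 largest falls, MRPL1, MRPL19, MRPL21 and MRPS28 lay below 20 FPKM in all control libraries and the other genes above 30 FPKM.

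**Figure D2:**
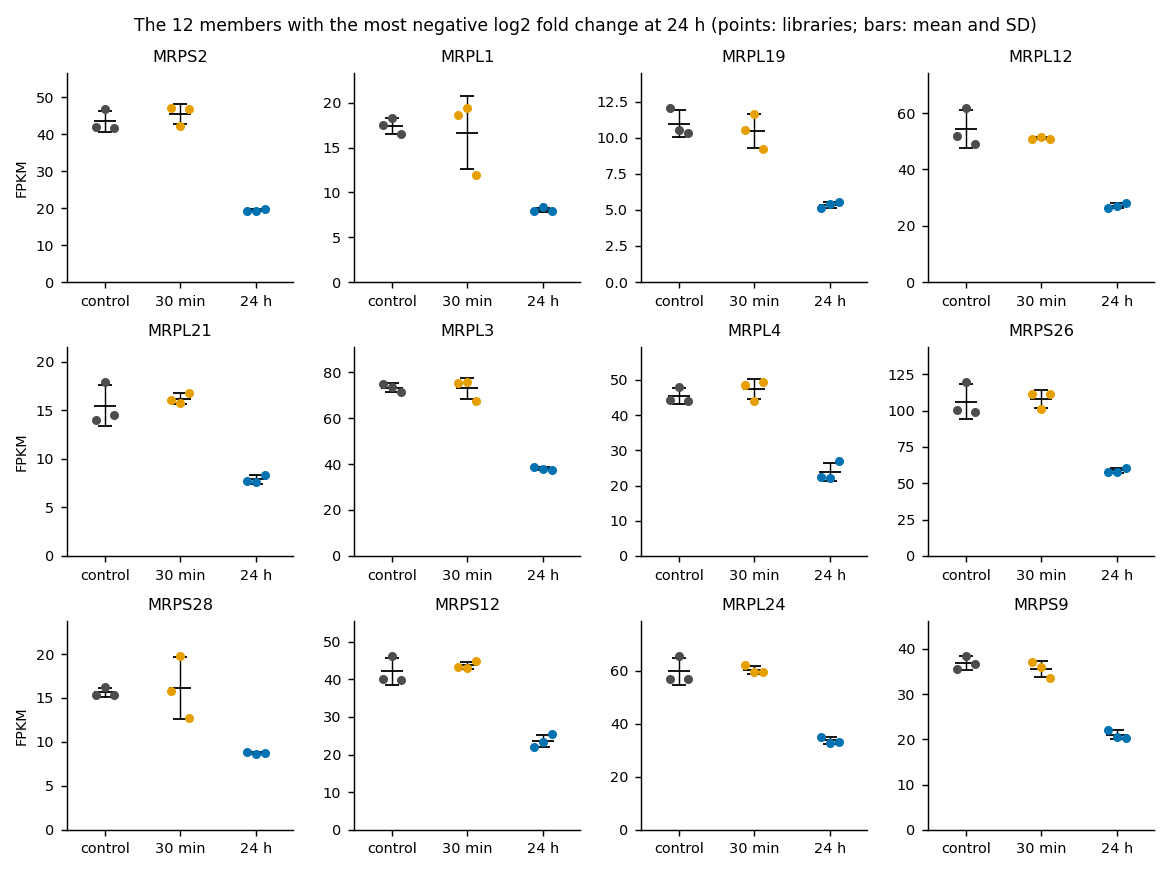
FPKM (y axis, from 0) in each library of control, 30 min and 24 h for the 12 members with the most negative log2 fold change at 24 h. Points are libraries and bars give the mean and SD. In every panel the 3 libraries of 24 h lie below all others, for example at 19.2 to 19.8 FPKM against 41.7 to 46.8 FPKM in the control for MRPS2.

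The other 11 members did not pass the test at 24 h, and they are named here after their values were seen. MRPL18 (ENSG00000112110, chromosome 6, 159789812 to 159798436), a protein of the central protuberance that is also known for importing 5S rRNA and for a cytosolic form made under heat shock, was at 64.1, 68.5 and 60.8 FPKM in the control. It was at 72.7, 71.96 and 64.2 FPKM at 30 min and 68.1, 65.99 and 63.6 FPKM at 24 h, and the 3 groups overlapped. Its log2 fold change at 24 h was -0.02 ± 0.068 (SE) with an adjusted p of 0.831, and its sign turned under other scalings, for example to 0.03 when libraries were scaled by their totals alone. MRPL18 and MRPL3 were expressed at like levels in the control, with an MRPL3 to MRPL18 ratio of FPKM between 1.07 and 1.17, and at 24 h the ratio was 0.57 to 0.59.

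MRPS14, the counterpart of bacterial S14, was at 16.6, 16.5 and 15.03 FPKM in the control, 15.9, 17.3 and 17.02 FPKM at 30 min and 17.4, 18.4 and 17.3 FPKM at 24 h. Its 24 h libraries lay above all control libraries by a small margin (log2 fold change 0.09 ± 0.072 (SE), edgeR adjusted p = 0.294). MRPL53 (log2 fold change 0.38 ± 0.20 (SE), adjusted p = 0.113) and MRPS36 (0.22 ± 0.11 (SE), adjusted p = 0.0763) also had positive values. MRPS36 is now known as a subunit of the 2-oxoglutarate dehydrogenase complex of the citric acid cycle and is no longer counted as a ribosomal protein. It was at 9.11, 10.2 and 10.2 FPKM in the control and 12.1, 11.7 and 11.8 FPKM at 24 h, with no overlap. MRPS36 passed the test above the control in 6 of the alternatives, one of which left out 30 min replicate 3 (0.22, adjusted p = 0.0426), and MRPL53 passed with limma.

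The remaining 7 genes that did not pass had log2 fold changes between -0.20 and -0.05. MRPL41 was at 37.2, 44.4 and 33 FPKM in the control and 30.9, 34.7 and 37.9 FPKM at 24 h, with overlap, and its adjusted p was 0.0884. It passed without control replicate 3 (-0.30, adjusted p = 0.0128) or without 24 h replicate 3 (-0.29, adjusted p = 0.0292). It also passed with no filter beyond a total count of 10 (-0.24, adjusted p = 0.0335). MRPL38, of the central protuberance, was at 5.56, 6.03 and 5.79 FPKM and 5.51, 5.21 and 5.14 FPKM, with no overlap and an adjusted p of 0.097. MRPL38 passed without 30 min replicate 3 (-0.18, adjusted p = 0.0432) and with only the 6 libraries of the comparison (-0.18, adjusted p = 0.0439). MRPL40 (-0.15), MRPL33 (-0.14), MRPL49 (-0.09), MRPL34 (-0.06) and MRPL10 (-0.05) overlapped the control. The sign for MRPL34 turned to 0.05 without control replicate 2, and for MRPL10 to a value within 0.01 of 0 with a level minimum of 5 FPKM. Both members of smallest change that did pass, MRPS25 (-0.16, adjusted p = 0.0224) and MRPS11 (-0.17, adjusted p = 0.0294), had 24 h libraries below all control libraries.

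Members were then taken by their place in the ribosome, with class lists from textbook knowledge. Of 29 large subunit genes with a bacterial homologue, 25 fell, with a median log2 fold change of -0.58 and a range of -1.17 to -0.02. Of 20 large subunit genes specific to mitochondria, 15 fell, with a median of -0.42 and a range of -0.83 to 0.38. Among the small subunit genes, 14 of 15 with a bacterial homologue fell (median -0.48, range -1.21 to 0.09), and 10 of 10 specific to mitochondria fell (median -0.60, range -0.90 to -0.16). All 4 medians lay below the 0.01 of all tested genes, and the ranges of the 4 classes overlapped. By subunit, 40 of 49 large and 24 of 25 small subunit genes fell, with medians of -0.55 and -0.56. No class had a member that rose.

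Within the large subunit, the 5 genes at the rim of the exit tunnel (MRPL17, MRPL22, MRPL23, MRPL24 and MRPL47) all fell, with log2 fold changes between -0.87 and -0.35 and a median of -0.72. Of the 8 genes of the central protuberance, the landmark that sits over the tRNA sites, 5 fell, with a median of -0.27. MRPL46 had the most negative value of these at -0.64 ± 0.086 (SE, adjusted p = 1.55e-06), with 5.19, 4.81 and 4.88 FPKM in the control and 3.14, 3.37 and 3.35 FPKM at 24 h. MRPL18, MRPL38 and MRPL40 were the 3 that did not pass. MRPL48, which fell by 0.24 (adjusted p = 0.0221), lost its call without control replicate 2 (-0.22, adjusted p = 0.0503), without 24 h replicate 1 (-0.23, adjusted p = 0.0637) and without 24 h replicate 3 (-0.23, adjusted p = 0.0599). The same gene lost it with library totals alone (-0.19, adjusted p = 0.0587) and with a level minimum of 5 FPKM (-0.18, adjusted p = 0.0579).

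The stalk of the large subunit recruits the translation factors, and its genes did not move as one. MRPL12 (ENSG00000262814, chromosome 17, 81703367 to 81707517), the counterpart of bacterial L7/L12, was at 51.8, 61.8 and 48.9 FPKM in the control, 50.9, 51.5 and 50.8 FPKM at 30 min and 26.4, 27.1 and 27.9 FPKM at 24 h. All 24 h libraries lay below the others (log2 fold change -1.05 ± 0.086 (SE), edgeR adjusted p = 1.16e-09). MRPL10 (ENSG00000159111, chromosome 17, 47823272 to 47831541), the protein to which L12 binds, was at 10.9, 11.4 and 11.8 FPKM, 11.6, 10.2 and 11.9 FPKM and 12.2, 10.96 and 11.01 FPKM, and all 3 groups overlapped (log2 fold change -0.05 ± 0.083 (SE), adjusted p = 0.62). The 95% interval of the MRPL10 change ran from -0.22 to 0.12. Per library, the MRPL12 to MRPL10 ratio of FPKM was 4.14 to 5.40 in the control, 4.27 to 5.04 at 30 min and 2.17 to 2.54 at 24 h, so the 24 h ratios lay below all others. With 3 libraries a group, an exact permutation test of such a ratio gives no p below 0.1.

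MRPL11, at the base of the stalk, fell at 24 h from 26.97, 29.4 and 28.6 FPKM to 19.9, 19.9 and 20.2 FPKM (log2 fold change -0.55 ± 0.067 (SE), adjusted p = 3.54e-07). MRPL54 fell from 23.8, 32.1 and 24.9 FPKM to 17.1, 18.2 and 19.8 FPKM (-0.60 ± 0.11 (SE), adjusted p = 5.2e-05). MRPL53 was the member of lowest level, at 1.93, 1.88 and 1.33 FPKM in the control and 2.28, 2.41 and 2.28 FPKM at 24 h. Of its exon length, 72.9% lies in exons of CCDC142 on the same strand, and reads from that shared part cannot be told apart from those of CCDC142.

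MRPS18A, MRPS18B and MRPS18C are paralogues related to bacterial S18. MRPS18A is built into the large subunit, and MRPS18B and MRPS18C into the small subunit. In the class lists used above, MRPS18A and MRPS18B count as specific to mitochondria and MRPS18C as having a bacterial homologue. MRPS18B was at 49.8, 48.5 and 49.4 FPKM in the control and 33.7, 37.5 and 38.5 FPKM at 24 h, MRPS18A at 27.2, 25.4 and 27.98 FPKM and 17.4, 17.7 and 20.9 FPKM. MRPS18C was at 6.12, 7.53 and 7.35 FPKM and 5.06, 5.51 and 4.96 FPKM. The order MRPS18B, MRPS18A, MRPS18C held in all 9 libraries. Each paralogue fell at 24 h, with no overlap between groups, and the log2 fold changes were -0.57 (MRPS18A), -0.48 (MRPS18B) and -0.48 (MRPS18C), with adjusted p of 1.27e-05, 2.18e-06 and 7.9e-05. Their 95% intervals, -0.76 to -0.38, -0.61 to -0.34 and -0.67 to -0.30, overlapped.

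**Figure D3:**
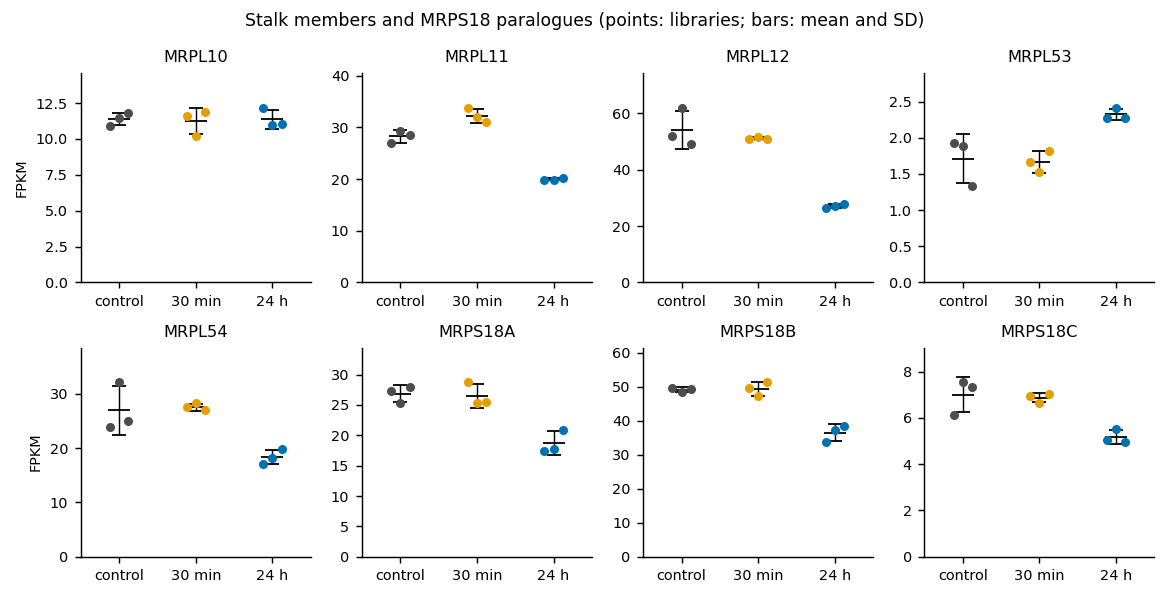
FPKM (y axis, from 0) in each library of control, 30 min and 24 h for the 5 stalk members and the 3 MRPS18 paralogues. Points are libraries and bars give the mean and SD. MRPL10 stays between 10.2 and 12.2 FPKM in all libraries, while MRPL12 is at 26.4 to 27.9 FPKM at 24 h against 48.9 to 61.8 FPKM in the control.

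At 30 min, when MYC was already lower, no member passed the test in either direction. Of 11587 tested genes, 1.33% fell and 0.293% rose, and the members counted 0 of 75 in both; 0 were down-regulated or up-regulated, against 0.544% and 0.0949%. At an unadjusted p below 0.05, 1 member was found, and DESeq2 and limma also gave 0 by adjusted p. The members' log2 fold changes ranged from -0.11 to 0.20 with a median of 0.03, against -0.004 for all tested genes. The 95% interval of every one of the 75 members lay within the 1.5-fold range, and the median width to each side was 0.16. So changes of 1.5-fold or more lay outside the intervals at this time.

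MRPL11 had the smallest p at 30 min. It was at 26.97, 29.4 and 28.6 FPKM in the control and 33.7, 31.97 and 31 FPKM at 30 min, and all 30 min libraries lay above all control libraries (log2 fold change 0.20 ± 0.065 (SE), edgeR adjusted p = 0.15). MRPL18, with 72.7, 71.96 and 64.2 FPKM at 30 min, overlapped the control (0.12 ± 0.068 (SE), adjusted p = 0.543). MRPS15, with 26.2, 26.1 and 22.2 FPKM in the control and 26.1, 28.2 and 26.1 FPKM at 30 min, also overlapped it (0.12 ± 0.072 (SE), adjusted p = 0.583). Groups that did not overlap the control were found in 4 members: MRPL11 and MRPL15 above, MRPS17 and MRPS30 below. For all tested genes the shares were 4.89% above and 8.91% below.

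Taken directly against the 30 min libraries, 66 of 75 members were lower at 24 h and 0 were higher, against 32.6% and 32.5% of 11981 tested genes. Of these, 40 were down-regulated by at least 1.5-fold and 0 up-regulated (11.5% and 15.4% of all tested genes), and the median log2 fold change was -0.61. MRPS2 had again the most negative value (-1.30 ± 0.071 (SE), adjusted p = 2.08e-12), followed by MRPL1 (-1.13), MRPL21 (-1.12) and MRPL4 (-1.07). All 64 members that fell against the control were also lower than at 30 min, a comparison that shares the 24 h libraries with the former. MRPL18 (-0.16, adjusted p = 0.0429) and MRPL41 (-0.26, adjusted p = 0.0255) were the other 2. MRPL18 lost that call when any library of 24 h was left out (adjusted p = 0.0679, 0.108 and 0.17), and also without control replicate 1 (0.054) or 30 min replicate 1 (0.164) or 2 (0.0886). MRPL41 lost it without 30 min replicate 1 (0.0925), 24 h replicate 1 (0.166) or 24 h replicate 2 (0.0632). Both also lost it with library totals alone (MRPL18 -0.08, adjusted p = 0.294, and MRPL41 -0.18, adjusted p = 0.106), with a level minimum of 5 FPKM (adjusted p = 0.255 and 0.102) and with both limma fits, and MRPL18 with the level minimum taken over 9 libraries (adjusted p = 0.0531).

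Levels differed more between the members than between the groups. In the control the members' means ran from 1.71 to 118 FPKM with a median of 22.6 FPKM, and at 24 h from 2.32 to 73.4 FPKM with a median of 17.3 FPKM. Over 9 libraries MRPS34, a protein specific to the mitochondrial small subunit, had the highest level, at 115, 132 and 108 FPKM in the control and 70.99, 71.97 and 77.1 FPKM at 24 h (log2 fold change -0.74 ± 0.079 (SE)). MRPS26 and MRPL37 followed, MRPL37 at 91.3, 91.9 and 83.04 FPKM and 64.3, 66.4 and 69.7 FPKM. MRPL18 and MRPL15 were next, MRPL15 at 74.6, 76.6 and 72.01 FPKM and 52.5, 54.2 and 54.7 FPKM. In the control, MRPS34 and MRPS26 overlapped in their libraries, and so did MRPL15 and MRPL3. The members of lowest level were MRPL53, MRPL46, MRPL38, MRPL48 and MRPL22. MRPL48 was at 6.03, 6.33 and 5.98 FPKM in the control and 5.36, 5.54 and 5.2 FPKM at 24 h, and MRPL22 at 6.62, 6.31 and 5.99 FPKM and 5.18, 5.15 and 5.05 FPKM. The order of levels changed little: across the 75 members log2 FPKM in the control and at 24 h had a Pearson r of 0.96 (Spearman rho 0.96), over points that share libraries and gene lengths. Level and change were weakly related across members (r = -0.21, rho = -0.13), and so were exon length and change (r = -0.07, rho = 0.01).

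Summed FPKM of the large subunit genes was 1.87 to 1.89 times that of the small subunit genes in the control, 1.85 to 1.94 times at 30 min and 1.99 to 2.05 times at 24 h. The ratios of 24 h lay above all others. The sums were 1464 ± 77.5 and 778 ± 37.8 FPKM in the control (SD, n = 3) and 1042 ± 20.3 and 514 ± 8.92 FPKM at 24 h. Median levels went the other way. That of the large subunit genes went from 23.3 ± 1.29 to 17.7 ± 0.77 FPKM (SD, n = 3). That of the small subunit genes fell less, from 19.3 ± 1.33 to 17.3 ± 0.421 FPKM. Which subunit fell more thus depends on the summary used. The mRNAs encoded by mitochondrial DNA, which the mitoribosome translates, took 3.26% to 3.32% of all counts in the control, 3.20% to 3.40% at 30 min and 3.25% to 3.36% at 24 h, with overlap of all groups.

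**Figure D4:**
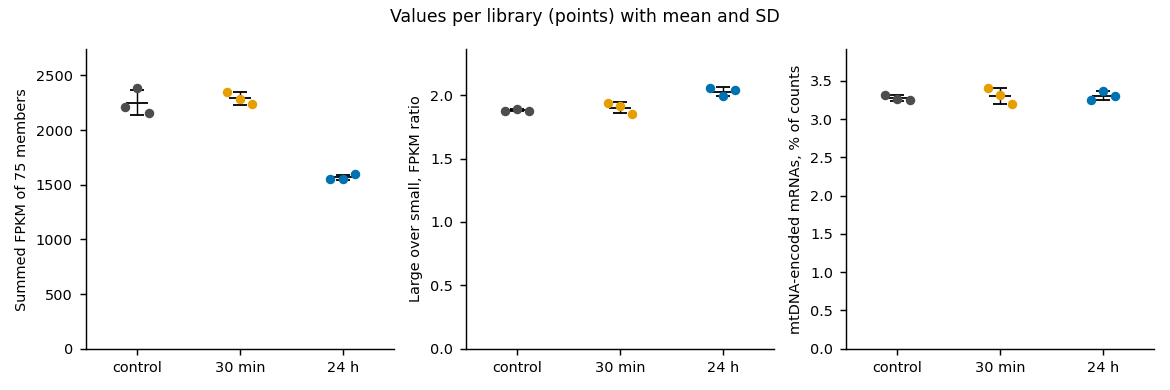
Summed FPKM of the 75 members, ratio of the summed FPKM of large to small subunit genes, and percent of counts in the mRNAs encoded by mitochondrial DNA (y axes, from 0) per library of control, 30 min and 24 h. Points are libraries and bars give the mean and SD. The sum is 1567 ± 26.6 FPKM at 24 h against 2252 ± 115 FPKM in the control, the ratio is 1.99 to 2.05 against 1.87 to 1.89, and the mitochondrial mRNA shares of the groups overlap.

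Mitoribosomal proteins with other symbols were DAP3, PTCD3, CHCHD1, AURKAIP1 and GADD45GIP1, and 4 of these 5 fell at 24 h with 0 rising. GADD45GIP1, a large subunit protein, went from 190 ± 25.6 FPKM (SD, n = 3) in the control to 98.7 ± 6.25 FPKM (log2 fold change -0.996 ± 0.085 (SE), adjusted p = 2.13e-09). DAP3, a GTP-binding protein of the small subunit, went from 36.1 ± 1.2 to 26.2 ± 0.257 FPKM (-0.51 ± 0.058 (SE)), and AURKAIP1 from 60.6 ± 7.08 to 45.8 ± 2.84 FPKM (-0.45 ± 0.080 (SE)). CHCHD1 did not pass (-0.24 ± 0.11 (SE), adjusted p = 0.0617).

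Of 27 listed factors that modify the rRNAs or assemble the mitoribosome, 25 were tested, 13 fell and 2 rose, with a median log2 fold change of -0.29. The lowest values were those of TFB1M, which methylates the small subunit rRNA (-1.01 ± 0.086 (SE), 11.3 ± 0.734 to 5.77 ± 0.111 FPKM), of the helicase DDX28 (-0.95 ± 0.086 (SE)) and of MALSU1 (-0.94 ± 0.091 (SE)), which keeps the immature large subunit from joining. YBEY (0.79 ± 0.17 (SE), 2.52 ± 0.349 to 4.52 ± 0.656 FPKM) and TRMT2B (0.41 ± 0.084 (SE)) rose. Of 18 mitochondrial translation factors, 14 fell and 0 rose, with a median of -0.53. GFM1, elongation factor G1, went from 11.2 ± 0.171 to 5.84 ± 0.419 FPKM (-0.99 ± 0.066 (SE)), TSFM, elongation factor Ts, from 14.6 ± 0.87 to 8.05 ± 0.905 FPKM (-0.90 ± 0.093 (SE)), and TUFM, elongation factor Tu, from 245 ± 5.97 to 136 ± 4.58 FPKM (-0.89 ± 0.059 (SE)). These lists were written from textbook knowledge, and their counts stand beside the 31.8% of tested genes that fell and the 31.5% that rose.

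Of 10 genes that replicate or transcribe mitochondrial DNA, 6 fell and 0 rose, with a median of -0.48. TWNK, the replicative helicase, went from 31.97 ± 1.147 to 11.7 ± 0.01 FPKM (-1.501 ± 0.070 (SE), adjusted p = 1.98e-13), and its exons overlap 4.16% of those of MRPL43 on the opposite strand. TFB2M (-1.07 ± 0.075 (SE)) and POLRMT (-0.82 ± 0.064 (SE)), both of the transcription machinery, fell as well. Of the 13 mRNAs encoded by mitochondrial DNA, 6 fell and 0 rose, none by 1.5-fold, with a median of -0.13. MT-ATP8 (-0.40 ± 0.099 (SE)), MT-ND2 (-0.38 ± 0.062 (SE)) and MT-ATP6 (-0.29 ± 0.052 (SE)) had the largest changes. Of the rRNAs of the organelle, MT-RNR1 of the small subunit fell (-0.41 ± 0.055 (SE), 597 ± 27.2 to 465 ± 9.75 FPKM) and MT-RNR2 of the large subunit did not pass (0.09 ± 0.060 (SE), adjusted p = 0.174). For library preparation the study mentions a poly(A) isolation module or an rRNA depletion kit without saying which was used for which library, and either can set the level of an rRNA.

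**Figure D5:**
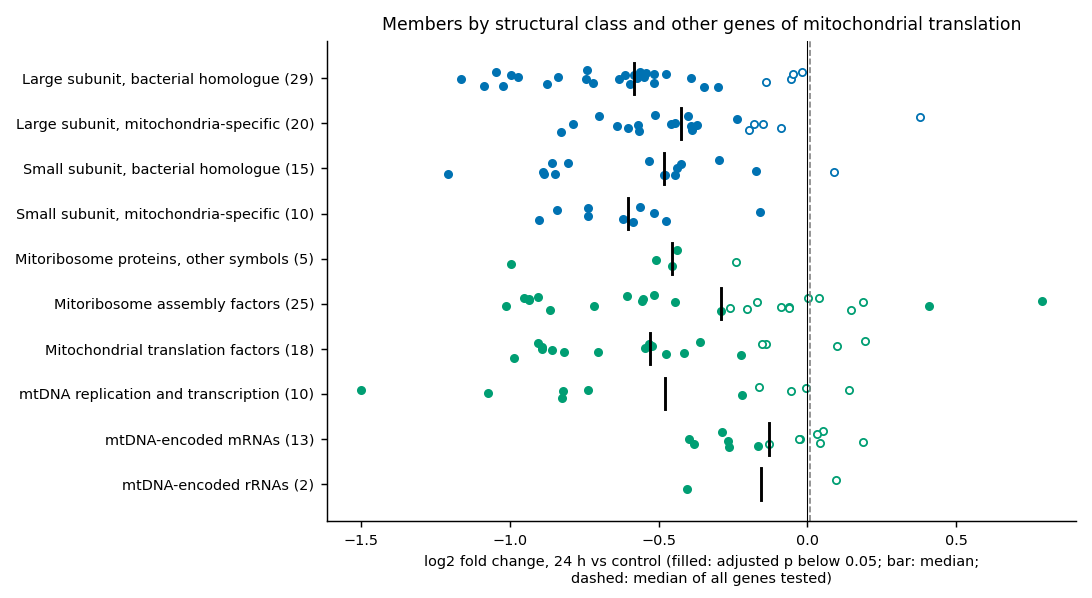
Log2 fold change at 24 h against the control (x axis) for the members in 4 structural classes (blue) and for 6 other lists of genes of mitochondrial translation (green), with the number of genes in parentheses. Filled points have an adjusted p below 0.05, black bars are medians and the dashed line is the median of all tested genes, 0.01. Class medians lie between -0.60 and -0.42, and that of the mRNAs encoded by mitochondrial DNA is -0.13.

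For comparison, 80 cytosolic ribosomal protein genes and 74 nuclear genes of respiratory chain and ATP synthase subunits were taken by their symbols, a choice made after the data were seen. At 24 h, 54 of the 80 fell and 4 rose, with a median log2 fold change of -0.21 and 3 down-regulated by 1.5-fold. Of the 74, 44 fell and 3 rose, with a median of -0.20 and 4 down-regulated. The members' own values were 64 of 75, 0 and -0.55, with 31 down-regulated. Of all tested genes, 31.8% fell, 31.5% rose and 11.2% were down-regulated. No test of the difference between these groups of genes was made.

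Reads shared between genes limit single members. In GENCODE 44, 37 members share exon sequence with another gene of the file, and 33 have 1 or more annotated pseudogene copies in it. The file holds 73 pseudogenes named after MRPL or MRPS genes, whether of members or not, and 1 of them had a mean above 1 FPKM. Of the 38 members without such exon overlap, 33 fell at 24 h with a median of -0.55, and of the 37 with it, 31 fell with a median of -0.55. Of the 42 members without a pseudogene copy 35 fell (median -0.59), and of the 33 with one 29 fell (median -0.48). Among the members named, MRPS18A shares 50.9% of its exon length with RSPH9 on the opposite strand, MRPS18C 40.2% with ABRAXAS1 on the opposite strand and MRPL12 69.5% with a read-through gene on the same strand that is listed at 0 FPKM. MRPL19 shares 19.5% with a long noncoding RNA on the same strand, MRPS9 20.3% with MRPS9-AS1 and MRPS34 31.2% with EME2, both on the opposite strand. MRPS14 shares 14.9% with CACYBP and MRPL33 21.2% with BABAM2, both expressed above 10 FPKM.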

How the data were processed

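RNA-seq of U937 cells (3 libraries each of control, 30 min and 24 h) was used. The authors trimmed reads with cutadapt 1.9.1, mapped them with HISAT2 2.0.1 and counted them per gene with HTSeq 0.6.1, and deposited the raw counts per gene and their FPKM values, rounded to 2 decimals. The paper names hg38 and the submitters' processing notes name GRCh37, so the coordinates printed are those of GENCODE 44 (GRCh38) or RefSeq, not of the file, and the symbols of 51996 of 57905 identifiers come from GENCODE 44. The annotation release, strand setting and handling of reads with several matches are not given in the sources used here.

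Counts were tested with edgeR 4.0.16 (R 4.3.3; TMM, quasi-likelihood, all 9 libraries in one fit) for genes with a mean FPKM above 1 over the 6 libraries compared, with Benjamini-Hochberg adjustment over all of them. Passing needed an adjusted p below 0.05, and calls a fold of at least 1.5 as well. Intervals are 95% and come from the fit. Tested on simulated data (12031 genes, 24 h against control), the fit recovered 189 of 200 changed genes with 9 false calls. The changed genes were set to differ by at least 1.5-fold and were a smaller share than in the data. Smaller changes, such as those of many members, were therefore not covered. DESeq2 1.42.0 and limma 3.58.1 on log2(FPKM + 0.1) or log2(FPKM + 1) were alternatives, as were other filters, scalings and fold thresholds, a replicate block and each library left out.

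The members and lists were chosen with earlier results of these data known. Genes named were the 12 most negative changes at 24 h, the 3 smallest p at 30 min, the 5 highest and 5 lowest levels, the stalk and MRPS18 genes, and the 3 largest changes of each other list, plus the members that did not pass, added after values were seen. A ranking of genes by likeness of profile was left out, since the 9 libraries form separate groups. The values of 1 marker gene are not reported here.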

Additional observations from a re-analysis of the deposited data

Results flagged for a closer look

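The change from 30 min to 24 h passed the edgeR test in 66 members, all lower at 24 h. It compares the same treatment at 2 times, and a longer treatment cannot be told apart from a longer time in culture. Values are given for those of the 66 that the naming rule picked or that were named for not passing against the control, and others lie in the same ranges. Below -0.9 on the log2 scale were MRPS2 (-1.30), MRPL1 (-1.13), MRPL21 (-1.12), MRPL4 (-1.07), MRPL19 (-1.05), MRPL3 (-1.02), MRPL12 (-0.99), MRPS12 (-0.97), MRPS28 (-0.97), MRPS26 (-0.95) and MRPL24 (-0.92). Between -0.9 and -0.6 were MRPS9 (-0.84), MRPS34 (-0.82), MRPL11 (-0.77), MRPL46 (-0.69), MRPL54 (-0.66), MRPL15 (-0.63) and MRPS15 (-0.62). Nearer 0 were MRPS18A (-0.58), MRPS18B (-0.51), MRPL37 (-0.50), MRPS18C (-0.49), MRPL22 (-0.43), MRPL48 (-0.30), MRPL41 (-0.26) and MRPL18 (-0.16), and the last 2 lost their call when single libraries were left out.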

How the results depend on the processing

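The number of members that fell lay between 60 and 65 at 24 h against the control and between 62 and 70 against 30 min under every alternative run, and was 0 at 30 min under each. Without a fold threshold 64 were down-regulated at 24 h against the control, and 5 at a fold of at least 2. The 31 called at 1.5-fold became 24 with either limma fit or with a level minimum of 5 FPKM. They became 26 with library totals alone and 39 with no filter beyond a total count of 10. The minimum of 5 FPKM leaves MRPL46, which was among the 31, and MRPL53 untested, so its counts are over fewer members. Against 30 min, 66 were down-regulated without a fold threshold, 6 at a fold of at least 2 and 23 with limma on log2(FPKM + 1). The median at 24 h against the control was -0.50 with a level minimum of 5 FPKM, -0.50 with library totals alone, -0.50 with limma at a pseudocount of 0.1 and -0.48 at 1. Against 30 min it was -0.54, -0.53, -0.53 and -0.49 in that order. The cause was not tested. Against the control 1 member, MRPS36, rose with the minimum of 5 FPKM, library totals, only the 6 libraries compared or without 30 min replicate 3, and 2 rose with either limma fit; against 30 min, 1 rose with library totals or either limma fit.

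With each library left out, 62 to 65 members fell against the control and 63 to 67 against 30 min, 29 to 38 and 39 to 43 were down-regulated, 0 to 1 rose against the control, and the medians were -0.59 to -0.51 and -0.63 to -0.59. The median at 30 min was 0.0078 to 0.0779, the latter without control replicate 2. The log2 fold change of MRPL18 at 24 h turned to 0.0369 (minimum of 5 FPKM), 0.0305 (library totals), 0.0322 and 0.0317 (limma, 0.1 and 1) and lay between -0.0681 and 0.0168 with single libraries left out. That of MRPL10 turned to 0.0046 (minimum of 5 FPKM) and that of MRPL34 to 0.0455 without control replicate 2, against -0.1517 without control replicate 3, and none of these passed. Of the other values of named members under alternatives, 1189 kept direction and call, 23 lost the call and 13 gained it.

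The labels do not say whether the replicate numbers pair the libraries. Deviations of libraries with the same number correlated between -0.22 and 0.12, and those with other numbers between -0.21 and 0.23. These ranges overlap, so the values do not decide it. A fit with the replicate number as a block gave 64 members lower and 31 down-regulated at 24 h, 66 and 40 against 30 min, and 0 at 30 min. The member with the fewest counts, MRPL53, had 31 to 67 a library, and the effect of depth on the calls was not tested.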
